A study of Mus musculus with 12 samples.

Results

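The contractile and dedifferentiation genes described here are Acta2, Tagln, Myl9, Cnn1, Cnn2, Tpm1, Tpm2, Fhl2, Srf and Vim, 10 of the 17536 genes in the deposited table. They were chosen because several of them were higher in deep zone (DZ) cells of R3-cKO mice, so their genotype difference in the DZ is the value that selected them. It is given below as a description, with no test. Their values in superficial zone (SFZ) cells did not enter the choice and were tested between genotypes. The difference between the zones uses the DZ values as well, so for these 10 genes it is also given with no test.

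RNA was sequenced from SFZ and DZ cells of 5-day-old C57BL/6 mice (C57BL/6J in the study's methods) of 2 genotypes, with 3 libraries in each of the 4 groups and 12 libraries in all. R3-Cntl mice carried Runx3 fl/fl, the floxed allele of Runx3, and no Cre, while R3-cKO mice carried Col2a1-Cre together with Runx3 fl/fl. Cre was driven by Col2a1, which is active in cells of the cartilage lineage, so other cells of the joint surface can keep an intact Runx3. The study's methods take both kinds of cell from dissected epiphyses by successive enzyme digestions, the superficial cells first, and grow them as a monolayer on fibronectin. How long the cells of each library were in culture is not given in the sources used here. Values are FPKM, a read count corrected for transcript length and sequencing depth, which the authors scaled between libraries. The number of reads behind a value is unknown, so errors are those seen between libraries of a group.

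Chondrocytes in cartilage are round cells with little filamentous actin, and they make type II collagen and aggrecan. When they are spread on a stiff surface they can flatten, assemble actin stress fibres and lose these cartilage products, a process called dedifferentiation. Free actin monomers hold the coactivators MRTF-A and MRTF-B in the cytoplasm, and once actin is built into filaments the coactivators enter the nucleus and join serum response factor (SRF), which binds CArG boxes in the promoters of many contractile genes.

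Runx3 (Entrez gene 12399, chromosome 4, 134676567 to 134733905 on the forward strand of mm9) is the targeted gene. In the SFZ it measured 10.7, 5.98 and 6.65 FPKM for R3-Cntl libraries 1, 2 and 3, and 11.8, 9.07 and 3.42 FPKM for those labelled R3-cKO. In the DZ it measured 12.7, 12.7 and 7.66 FPKM for R3-Cntl and 15.95, 12.7 and 8.14 FPKM for those labelled R3-cKO. Runx3 RNA was thus not lower in the libraries labelled R3-cKO, and the groups overlapped in both zones (log2 fold change -0.04, SE 0.43, limma adjusted p = 1 in the SFZ, and 0.13, SE 0.28, limma adjusted p = 0.999 in the DZ). A value per gene covers all exons and does not show whether the floxed part was present, and genotypes are named by their labels throughout. The study reports lower Prg4 in R3-cKO SFZ cells, and Prg4 was also lower in the SFZ libraries labelled R3-cKO, as given below. A gene on the opposite strand, Gm16224, shares 865 bases with Runx3.

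Several libraries stood apart for reasons other than the 10 genes. The 4 Y-linked genes Ddx3y, Eif2s3y, Kdm5d and Uty had sums of 0.06 and 0.03 FPKM in libraries R3-cKO SFZ 2 and 3. Their sums were 0.01 and 0.03 FPKM in libraries DZ 2 and 3 of the same label, against 12.1 to 52.4 FPKM in the other 8 libraries. All 4 were lower on average in the libraries labelled R3-cKO in both zones (medians of -1.94 in the SFZ and -1.53 in the DZ on the log2 scale, 0 of 4 called), so genotype and the presence of a Y chromosome cannot be told apart outside the libraries numbered 1. R3-Cntl SFZ 2 carried RNA of skeletal muscle: its 11 muscle genes summed to 135 FPKM against 5.54 to 19.6 FPKM in the other libraries. In that library the most abundant of the muscle genes by mean, the skeletal actin gene Acta1, measured 38.0 FPKM, the muscle myosin light chain gene Mylpf 40.2 FPKM and the embryonic myosin gene Myh3 10.6 FPKM.

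The zone labels were checked against known markers. Prg4, the gene of the lubricant of the joint surface, measured 2.13 to 22.2 FPKM in SFZ libraries and 1.22 to 5.72 FPKM in DZ libraries, with the 5.72 FPKM for R3-cKO DZ 1. It was higher in the SFZ by 1.32 (SE 0.35, limma adjusted p = 0.0253) on the log2 scale, although the ranges of the zones overlapped. In the SFZ Prg4 measured 22.2, 8.38 and 7.13 FPKM for R3-Cntl and 6.95, 2.47 and 2.13 FPKM for R3-cKO. These groups did not overlap (log2 fold change -1.45, SE 0.52, not called). R3-cKO DZ libraries measured 5.72, 1.32 and 2.14 FPKM, so among R3-cKO libraries Prg4 hardly separated the zones. Col2a1, the type II collagen gene, was the most abundant cartilage gene and was present in every library, from 3049 FPKM for R3-cKO SFZ 3 to 22791 FPKM for R3-Cntl DZ 1.

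The promoters of the 10 genes were searched first for the box that SRF binds. The 10 include Srf itself and contractile genes, a class in which SRF is known to bind many promoters. A high share of boxes among them is therefore built into the list and is given as a description. RefSeq promoter sequences (GRCm38.p6, 250 bases before to 50 bases after the start of transcription) were found for 9 of the 10 genes, with 2 entries for Fhl2, and Tagln had none in the table. Only the exact form of the CArG box was counted, CC and GG around a core of A and T letters alone. A box with any other letter in its core was missed, so a promoter without a match may still hold one. A CArG box of the exact form lay in 5 of these 10 promoters (50.0%), those of Myl9, Cnn2 and Srf and both of Fhl2. The share of all promoters was 535 of 32851 (1.63%). The boxes are shown in capitals with their surroundings before the start, 5′ to 3′ in the direction of each gene.
Myl9 (chr2:156775278-156775337, forward strand): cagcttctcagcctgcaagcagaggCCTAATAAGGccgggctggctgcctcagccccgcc
Cnn2 (chr10:79988519-79988578, forward strand): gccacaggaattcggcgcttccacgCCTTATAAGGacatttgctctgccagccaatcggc
Fhl2, first entry (chr1:43196823-43196882, reverse strand): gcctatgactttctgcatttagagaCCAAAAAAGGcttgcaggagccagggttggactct
Fhl2, other entry (chr1:43163962-43164017, reverse strand): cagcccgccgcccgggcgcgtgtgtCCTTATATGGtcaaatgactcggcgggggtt
Srf (chr17:46556190-46556269, reverse strand): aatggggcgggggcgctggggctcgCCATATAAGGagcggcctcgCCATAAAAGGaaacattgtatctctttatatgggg
The promoter of Srf was the only one of the 10 promoters with 2 boxes, which began 82 and 62 bases before the start. The boxes of Myl9 and Cnn2 began 161 and 56 bases before the start, and those of Fhl2 96 and 31 bases before it. The letters TGTGGT or TGCGGT, which RUNX proteins bind, were searched on both strands and lay in 3 of the 10 promoters (30.0%), those of Myl9 and Tpm1 and 1 of the 2 of Fhl2, against 22.4% of all promoters. These matches describe the letters in a window of 300 bases and do not show that a factor was bound.

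Levels per transcript length were ordered by the mean over the 12 libraries. Vim was the most abundant (mean 1604, SD 724 FPKM), followed by Tpm1 (449, SD 214), Acta2 (205, SD 145) and Cnn2 (168, SD 80.9). Tagln (76.5, SD 73.4), Tpm2 (52.3, SD 37.1), Fhl2 (40.7, SD 27.4) and Myl9 (40.5, SD 31.2) came next, and Srf (12.5, SD 5.76) and Cnn1 (2.37, SD 2.30) were the lowest. Vim exceeded Tpm1 and Tpm1 exceeded Acta2 in all 12 libraries, as Cnn2 did Tagln and Srf did Cnn1. Myl9 exceeded Srf in 11 of 12. The order was not fixed between Acta2 and Cnn2 (higher Acta2 in 7 of 12 libraries), Tagln and Tpm2 (8 of 12), Tpm2 and Fhl2 (7 of 12), or Fhl2 and Myl9 (7 of 12). A smooth muscle actin was therefore at the level of calponin 2 in these cartilage preparations, while the smooth muscle calponin Cnn1 was far below both. Acta2 is nearly identical in its coding sequence to Acta1 and Actg2, and reads may have been split between these genes in a way that the deposited values do not show.

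**Figure D1:**
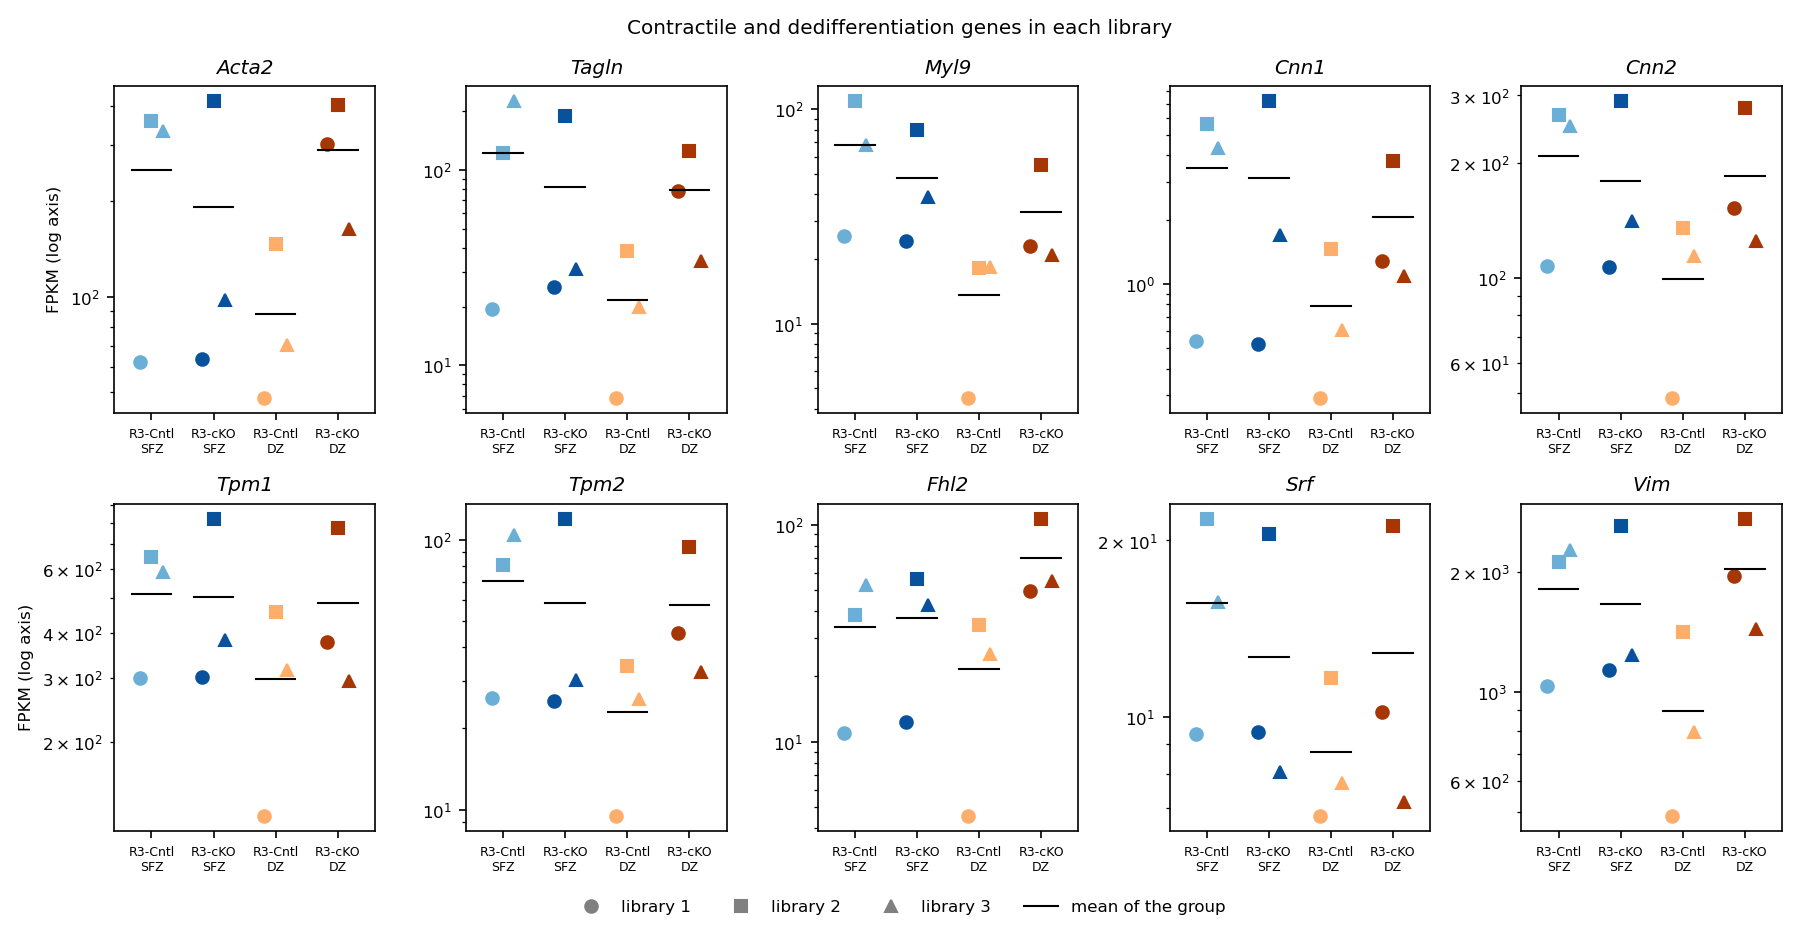
FPKM (log axis) of the 10 genes in each of the 12 libraries, by group; symbols give the library number and bars the arithmetic mean of 3 libraries. R3-Cntl DZ 1 is the lowest of the 12 libraries for all 10 genes, and libraries numbered 2 are high in the DZ and in R3-cKO SFZ.

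The transcription factor and its cofactor are described first. Srf (Entrez gene 20807, chromosome 17, 46683788 to 46693111 on the reverse strand of mm9) measured 6.77, 11.7 and 7.70 FPKM for numbers 1, 2 and 3 of the R3-Cntl DZ group, and 10.2, 21.2 and 7.15 FPKM for those of the R3-cKO DZ group. The groups overlapped, R3-cKO DZ 3 being below R3-Cntl DZ 2 and 3, and the log2 fold change of 0.41 (SE 0.38) was the smallest of the 10. It was 0.0087 without R3-cKO DZ 2 and 0.73 without R3-cKO DZ 3. In the SFZ Srf measured 9.36, 21.8 and 15.7 FPKM for R3-Cntl and 9.42, 20.5 and 8.07 FPKM for R3-cKO. The annotated gene lies within a non-coding gene on the opposite strand, Gm16736, and reads of the pair cannot be told apart without strand.

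Fhl2 (Entrez gene 14200, chromosome 1, 43179919 to 43220806, reverse strand) encodes a LIM-domain protein that binds SRF and is itself an SRF target. In the DZ it measured 4.53, 34.6 and 25.4 FPKM for R3-Cntl libraries 1, 2 and 3 and 49.3, 106 and 55.0 FPKM for R3-cKO libraries 1, 2 and 3. Every R3-cKO DZ value lay above every R3-Cntl DZ value. The log2 fold change of 1.96 (SE 0.71) was the highest of the 10 genes, and it was 1.13 without R3-Cntl DZ 1, the library at 4.53 FPKM. In the SFZ Fhl2 measured 11, 38.1 and 52.5 FPKM for R3-Cntl and 12.3, 56.1 and 42.8 FPKM for R3-cKO, with libraries numbered 1 low in both genotypes and the groups overlapping. R3-cKO DZ 2 thus held the highest Fhl2 of all 12 libraries.

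Acta2 (Entrez gene 11475, chromosome 19, 34315580 to 34329826, reverse strand), the actin of smooth muscle and myofibroblasts, measured 47.7, 147 and 70.3 FPKM for the R3-Cntl DZ group and 302, 401 and 163 FPKM for the R3-cKO DZ group. The DZ groups did not overlap, and the log2 fold change was 1.76 (SE 0.48). Between libraries of the same number the R3-cKO value was 6.33, 2.73 and 2.32 times the R3-Cntl value in numbers 1, 2 and 3. In the SFZ Acta2 measured 62.3, 357 and 333 FPKM for R3-Cntl and 63.7, 414 and 97.9 FPKM for R3-cKO. Here both libraries numbered 1 were low and both numbered 2 were high, whichever the genotype.

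Myl9 (Entrez gene 98932, chromosome 2, 156601156 to 156607394, forward strand) encodes the regulatory light chain of smooth muscle and non-muscle myosin, whose phosphorylation starts contraction. It measured 4.48, 18.1 and 18.4 FPKM for the R3-Cntl DZ group and 23.1, 54.8 and 20.9 FPKM for the R3-cKO DZ group, which did not overlap, with a log2 fold change of 1.29 (SE 0.58). Without R3-Cntl DZ 1 it was 0.68. The SFZ values were 25.7, 109 and 68.2 FPKM for R3-Cntl and 24.3, 80.1 and 38.8 FPKM for R3-cKO, and the lowest of these 6 values was above every DZ value but that of R3-cKO DZ 2.

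Tagln, Cnn1 and Cnn2 encode calponin-family proteins that bind actin filaments. Tagln (Entrez gene 21345, chromosome 9, 45737711 to 45744141, reverse strand) measured 6.77, 38.4 and 19.8 FPKM for the R3-Cntl DZ group and 78.4, 126 and 34.1 FPKM for the R3-cKO DZ group. R3-cKO DZ 3 lay below R3-Cntl DZ 2, so the groups overlapped, and the log2 fold change was 1.93 (SE 0.68). The ratio at number 1 was 11.6, the highest of any of the 10 genes in any same-number DZ pair. In the SFZ Tagln measured 19.4, 123 and 226 FPKM for R3-Cntl and 25.2, 190.0 and 31.2 FPKM for R3-cKO. Tagln shares 65 bases with Pcsk7 on the opposite strand.

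Cnn1 (Entrez gene 12797, chromosome 9, 21903725 to 21914074, forward strand) lay near the floor of the data, with 0.29, 1.45 and 0.61 FPKM for the R3-Cntl DZ group and 1.28, 3.78 and 1.09 FPKM for the R3-cKO DZ group. It passed the filter of 1 FPKM in 3 libraries in the DZ with 4 libraries, 3 of them R3-cKO. Its log2 fold change of 0.72 (SE 0.38) is damped by the pseudocount of 1, and a pseudocount of 0.1 gave 1.3. It was 0.34 without R3-cKO DZ 2. Cnn2 (Entrez gene 12798, chromosome 10, 79451329 to 79458807, forward strand), the calponin of non-muscle cells, measured 48.5, 135 and 114 FPKM for R3-Cntl DZ and 152, 278 and 125 FPKM for R3-cKO DZ (log2 fold change 0.93, SE 0.45, and 0.49 without R3-Cntl DZ 1). Both genes overlapped between the DZ groups.

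Tpm1 (Entrez gene 22003, chromosome 9, 66870397 to 66897213, reverse strand) and Tpm2 (Entrez gene 22004, chromosome 4, 43527583 to 43536637, reverse strand) encode tropomyosins, which coil along actin filaments and stabilise them. Tpm1 measured 125, 456 and 317 FPKM for R3-Cntl DZ and 378, 775 and 294 FPKM for R3-cKO DZ, where R3-cKO DZ 3 was below R3-Cntl DZ 2 and 3 (log2 fold change 0.75, SE 0.55, and 0.22 without R3-Cntl DZ 1 or 1.14 without R3-Cntl DZ 2). Tpm2 measured 9.44, 34.1 and 25.7 FPKM for R3-Cntl DZ and 45.2, 94.4 and 32.3 FPKM for R3-cKO DZ (log2 fold change 1.3, SE 0.55, and 0.79 without R3-Cntl DZ 1), and R3-cKO DZ 3 again lay below R3-Cntl DZ 2. In the SFZ Tpm1 ranged from 299.7 to 823 FPKM, Tpm2 from 25.2 to 120.1 FPKM, Cnn2 from 107 to 290.4 FPKM and Cnn1 from 0.52 to 7.21 FPKM. For each of these 4 genes both SFZ libraries numbered 1 were the lowest and R3-cKO SFZ 2 the highest.

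Vim (Entrez gene 22352, chromosome 2, 13495554 to 13504453, forward strand) encodes vimentin, the intermediate filament protein of mesenchymal cells, and is not itself contractile. It measured 488, 1412 and 793 FPKM for the R3-Cntl DZ group and 1957, 2723 and 1439 FPKM for the R3-cKO DZ group. The DZ groups did not overlap, although R3-cKO DZ 3 and R3-Cntl DZ 2 were nearly equal, and the log2 fold change was 1.27 (SE 0.42). In the SFZ Vim measured 1038, 2127 and 2276 FPKM for R3-Cntl and 1138, 2615 and 1242 FPKM for R3-cKO.

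Over the 10 genes, the DZ log2 fold changes ranged from 0.41 to 1.96 with a median of 1.28, against a median of 0.05 over the 11091 genes tested there. The DZ groups did not overlap for 4 of the 10, Acta2, Myl9, Fhl2 and Vim, and 5.26% of all tested genes did so in this direction. Since the genes were chosen on this difference, nothing is read from that count. The same-number ratios had medians of 4.6, 2.67 and 1.49 in numbers 1, 2 and 3, and in number 3 the ratio was above 1 for 8 of 10 genes, Tpm1 and Srf being the exceptions. The number 1 pair is the only one in which both genotypes held Y-linked RNA. The median log2 fold change was 0.74 without R3-Cntl DZ 1 and 0.87 without R3-cKO DZ 2, and 1.34 to 1.62 without any other single DZ library. Fewer cells of a type and less RNA per cell cannot be told apart in these bulk libraries, here or below.

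In the SFZ, which did not enter the choice, none of the 10 genes differed between the genotypes by the test. The log2 fold change was negative for 9 of the 10 genes, with a median of -0.28 against -0.01 over all 11537 genes tested, and from -0.61 (SE 1.12) for Tagln to 0.13 (SE 0.75) for Fhl2. By limma 0 of the 10 genes had an adjusted p under 0.05, all 10 adjusted p-values being 1, and 0 had an unadjusted p under 0.05. The background in this comparison was 0% of genes at the adjusted threshold, 0.182% higher and 0.113% lower at an unadjusted p under 0.05 (21 and 13 genes), and 1.45% with all R3-cKO values above all R3-Cntl values, which none of the 10 genes showed. Quantile normalization gave 40 higher and 10 lower at the unadjusted threshold.

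The standard errors in the SFZ were wide, from 0.42 for Srf to 1.12 for Tagln, because libraries of the same group differed severalfold. R3-cKO SFZ 2 was the highest of its group for all 10 genes. Without R3-Cntl SFZ 2, the library with muscle RNA, the median of the 10 log2 fold changes was 0.0032, with 5 of 10 positive. It was -0.0030 without R3-Cntl SFZ 3, 0.06 without R3-cKO SFZ 1, -0.11 without R3-cKO SFZ 3, -0.77 without R3-Cntl SFZ 1 and -0.80 without R3-cKO SFZ 2. The direction in the SFZ therefore rested on single libraries, and whether the genotype difference of the 10 genes differs between the zones was not tested, since the DZ values selected them.

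**Figure D2:**
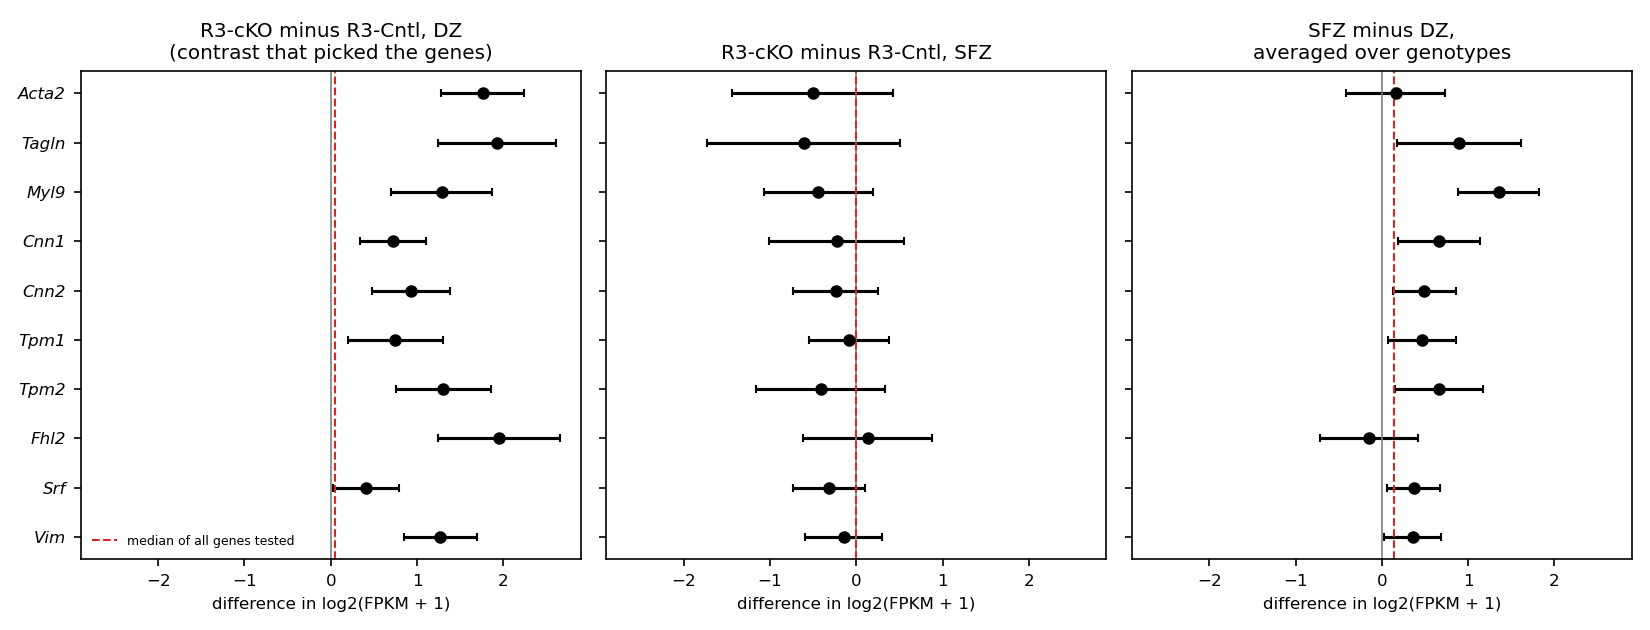
Differences in log2(FPKM + 1) of the 10 genes (points, with bars of 1 SE) between genotypes in the DZ, between genotypes in the SFZ, and between the zones averaged over genotypes; the dashed line is the median of all genes tested. All 10 points lie above 0 in the DZ, on which the genes were chosen, 9 of 10 lie below 0 in the SFZ, and 9 of 10 lie above 0 between the zones, a difference that uses the same DZ values.

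The zones were compared as the mean of both genotypes in the SFZ minus that in the DZ, a difference that includes the DZ values that selected the genes, so no test of the 10 genes is given. The log2 difference was positive for 9 of the 10 genes, with a median of 0.48 against 0.14 over the 11765 genes tested. Myl9 differed most, by 1.35 (SE 0.47), its SFZ value exceeding the DZ value of the same genotype and number in 6 of 6 cases. The median of the 10 differences was 0.27 without R3-cKO SFZ 2 and 0.28 without R3-Cntl DZ 1, each with 8 of 10 positive, and up to 0.67, with 10 of 10 positive, without R3-Cntl SFZ 1.

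Fhl2 was the single gene with a negative difference (-0.15, SE 0.57). Tagln was at 0.89 (SE 0.72), Tpm2 at 0.67 (SE 0.51), Cnn1 at 0.66 (SE 0.48), Cnn2 at 0.49 (SE 0.37), Tpm1 at 0.46 (SE 0.40), Srf at 0.37 (SE 0.31), Vim at 0.36 (SE 0.33) and Acta2 at 0.16 (SE 0.57). When each library was left out in turn the difference ranged from 0.44 to 1.40 for Tagln, 0.32 to 0.96 for Tpm2, 0.32 to 0.99 for Cnn1, 0.27 to 0.70 for Cnn2, 0.20 to 0.67 for Tpm1, 0.18 to 0.57 for Srf and 0.17 to 0.55 for Vim. Over all genes tested, 16.8% were called higher and 3.82% lower in the SFZ (1974 and 450 genes). For none of the 10 did all SFZ values exceed all DZ values, as they did for 9.71% of tested genes.

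Scaling mattered in this comparison. The median of all genes was 0.14 with the deposited values, -0.03 with quantile normalization and -0.0025 with median-of-ratios size factors, and the split of calls moved from 1974 higher and 450 lower to 828 and 1098, and to 974 and 935. Relative to the median of all genes the 10 genes had a median of 0.34, 0.44 and 0.32 under these 3 scalings, and Myl9 was above it by 1.21, 1.24 and 1.20. Acta2 lay 0.02, 0.11 and 0.0011 above it, so no zone difference of Acta2 is given a direction.

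By genotype the zone values are a description only. The choice of genes favoured high R3-cKO and low R3-Cntl DZ values. By that choice the zone difference is made smaller in R3-cKO and larger in R3-Cntl. Over both genotypes the numbers are not shown to pair the zones. Among R3-Cntl libraries the SFZ value was above the DZ value of the same number for all 10 genes in each of the 3 numbers, with median ratios of 2.31, 2.17 and 3.30. Among libraries labelled R3-cKO it was above for 1, 7 and 5 of the 10 genes, with median ratios of 0.570, 1.05 and 1.03. Acta2 was the gene with the lowest ratio in R3-cKO numbers 1 and 3, at 0.211 and 0.599.

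For 9 of the 10 genes, all but Myl9, more of the summed squared variation lay within groups than between them. These shares are not corrected for the number of libraries and groups. With 3 libraries in each of 4 groups, the larger share is expected within groups even where groups do not differ. The shares therefore do not show that replicate spread exceeded the group differences. Of the variation over the 12 libraries on the log2 scale, 45.5% (Myl9) to 78.1% (Srf) lay within groups, against a median of 65.0% over all genes. The zones took 0.443% for Fhl2, 0.508% for Acta2 and 36.3% for Myl9, and genotype within zone, which selected the genes, took 9.43% for Cnn1 to 40.3% for Vim. From the lowest to the highest library the 10 genes moved together. Over the 45 pairs of genes Pearson's r across the 12 libraries was 0.58 to 0.99, with a median of 0.89, and after each group's mean was removed it was 0.64 to 0.99, with a median of 0.90. These libraries share genotype, zone and possibly animals, and r is given as a description.

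Cnn2 and Tpm2 were the most alike pair (r = 0.99), followed by Tagln and Tpm2 (0.98) and Cnn2 and Tpm1 (0.98). Fhl2 and Srf, the factor and its cofactor, were the least alike (r = 0.58), then Myl9 and Fhl2 (0.69) and Cnn1 and Fhl2 (0.71). The 3 lowest of the 45 pairs thus all included Fhl2. R3-Cntl SFZ 1 and R3-Cntl DZ 1 were the lowest of their groups for 10 of 10 genes, R3-cKO SFZ 1 for 9 and R3-cKO DZ 3 for 9. The highest was R3-cKO SFZ 2 and R3-cKO DZ 2 for 10 genes and R3-Cntl DZ 2 for 9, while in R3-Cntl SFZ it was library 2 for 6 genes and library 3 for 4.

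**Figure D3:**
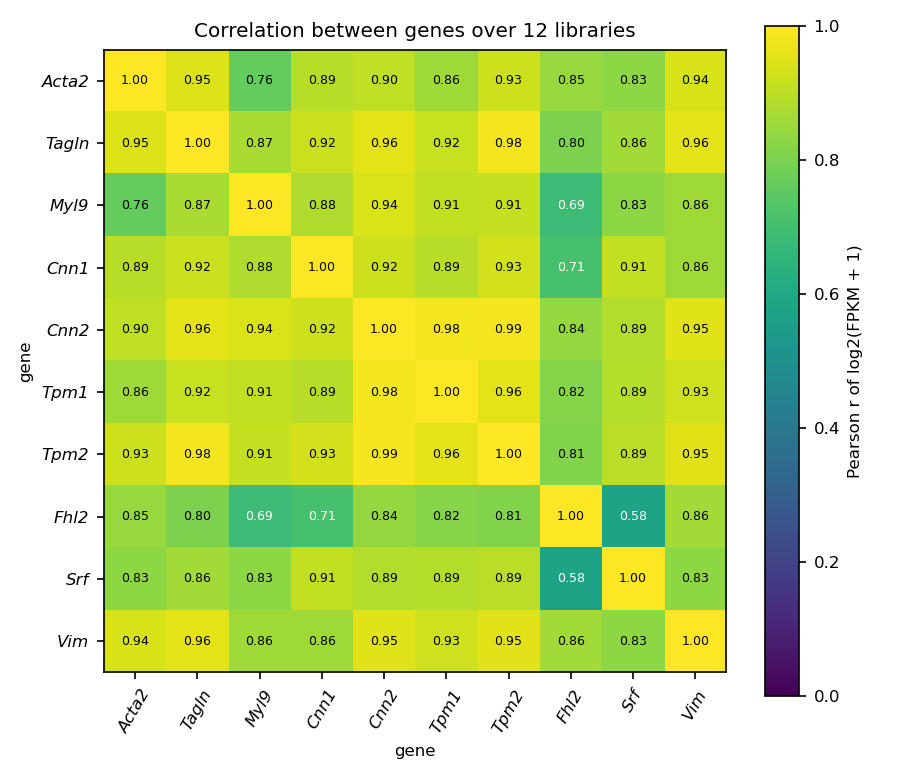
Pearson r between the log2(FPKM + 1) values of each pair of the 10 genes over the 12 libraries (color and number). Values run from 0.58 (Fhl2 and Srf) to 0.99 (Cnn2 and Tpm2).

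The genes most like the 10 were sought among 8277 other genes whose mean reached 5 FPKM, by r to the mean of the standardised values of the 10 over the 12 libraries. The closest were Flna (r = 0.99), which encodes the actin cross-linker filamin A, Anxa1 (0.98), Tln1 (0.98), the gene of talin that joins integrins to actin, Ltbp1 (0.98), which encodes a binding protein of latent TGF-β, and Actg1 (0.98), the gene of cytoplasmic γ-actin. Golm1, Lrrfip1, Cfl1, Pgrmc1 and Erc1 followed, with r from 0.96 to 0.97. Flna measured 94.8, 206 and 208 FPKM for R3-Cntl SFZ, 89.3, 268 and 112 FPKM for R3-cKO SFZ, 40.2, 112 and 77.9 FPKM for R3-Cntl DZ, and 123, 218 and 88.6 FPKM for R3-cKO DZ. It showed the low value of R3-Cntl DZ 1 and the high values of R3-cKO libraries numbered 2 that marked the 10 genes. In all, 164 of the 8277 genes had r above 0.9, and the median was 0.28.

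Lists of related genes, none of which holds any of the 10, were set against the same mean. Of 30 genes of the general actin cytoskeleton 30 had a positive r, with a median of 0.90, from 0.28 for Cnn3 to 0.99 for Flna. Of 20 genes of the SRF and MRTF axis 17 were positive (median 0.78), led by Tgfb1i1 (0.90), and of 12 genes largely restricted to smooth muscle 11 were positive (median 0.75), led by Lmod1 (0.90). No minimum level was set for these lists, and 3 of the 12 smooth muscle genes were under 1 FPKM in every library. Matrix and mesenchymal genes of dedifferentiation were more mixed, with 14 of 18 positive and a median of 0.36, from -0.46 for Tgfbi to 0.93 for Tnc. The cartilage genes ran the other way: 17 of 17 had a negative r, with a median of -0.66, from -0.80 for Comp to -0.26 for Sox6. Each r of these lists includes the differences between the zones and the DZ genotype difference that selected the 10 genes. For the lists r was not computed within groups.

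**Figure D4:**
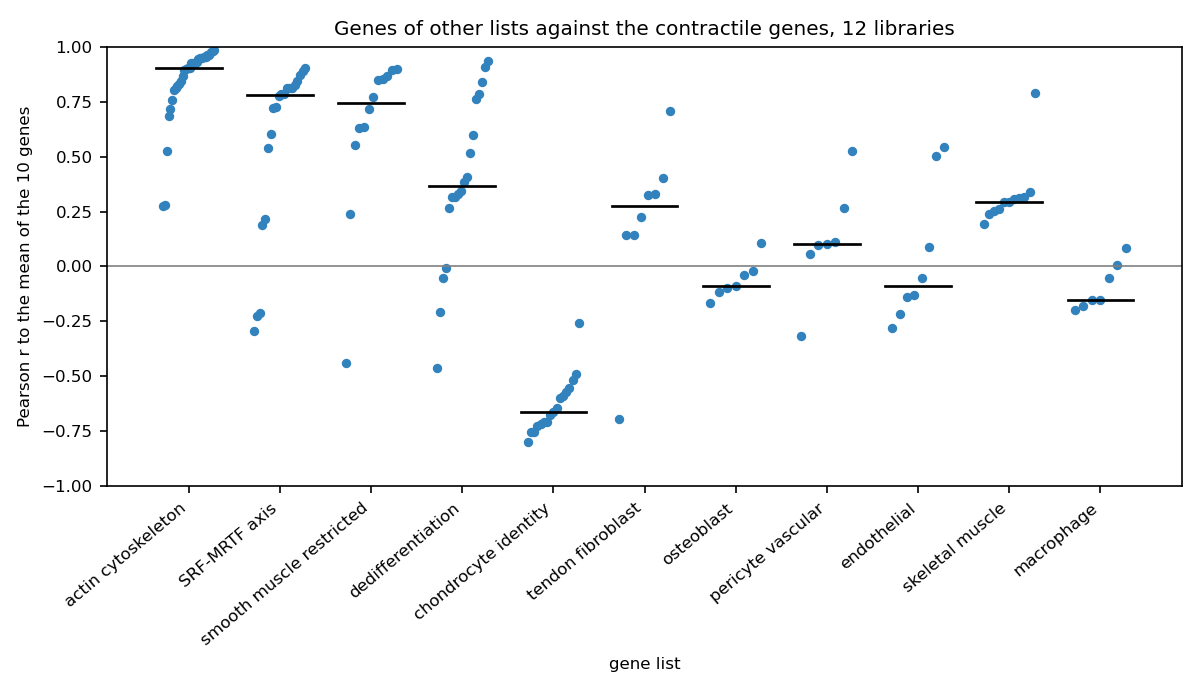
Pearson r of each gene of 11 lists (points, with the median of the list as a bar) to the mean of the 10 standardised genes over 12 libraries. The general actin genes have a median of 0.90 and the cartilage genes a median of -0.66.

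The mean of the standardised cartilage genes had an r of -0.67 to the mean of the 10 genes over the 12 libraries, which includes the same zone and genotype differences. R3-Cntl DZ 1 was at 1.23 for cartilage genes and at -1.82 for the 10 genes, and R3-Cntl SFZ 2 was at -1.62 and 1.02. R3-cKO SFZ 3 did not follow, being low in both (-1.23 and -0.21), and R3-cKO DZ 2 was close to 0 for cartilage genes (0.02) and high for the 10 (1.13). Acan, the aggrecan gene, measured 2046, 1112 and 1339 FPKM for the R3-Cntl DZ group and 1417, 738 and 1230.2 FPKM for the R3-cKO DZ group, so R3-Cntl DZ 1 had the highest Acan and the lowest of all 10 contractile genes.

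**Figure D5:**
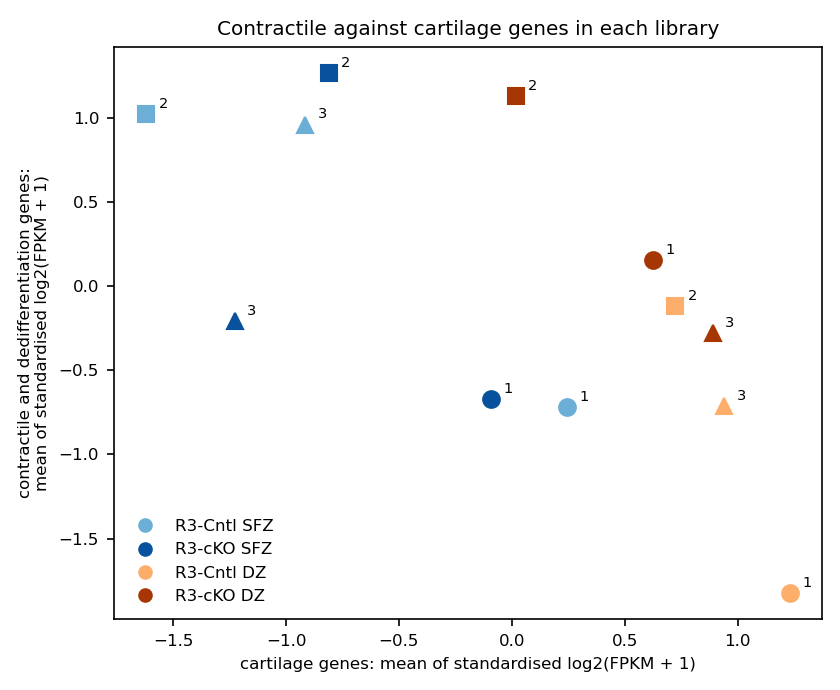
Mean standardised log2(FPKM + 1) of the 10 genes (vertical axis) against that of 17 cartilage genes (horizontal axis), 1 point for each of the 12 libraries, with the library number beside it and colors for the groups. R3-Cntl DZ 1 lies at the lower right (1.23 and -1.82) and R3-Cntl SFZ 2 at the upper left (-1.62 and 1.02).

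The same lists were compared between genotypes in the DZ. As the 10 genes were chosen on this comparison and the related genes move with them, the counts are a description. Over all genes tested there, 0% were called at an adjusted p under 0.05, 2.5% were higher and 1.15% lower at an unadjusted p under 0.05 (277 and 127 genes by limma, and 237 and 212 with quantile normalization). Same-number DZ libraries deviated together from their group means, and when the replicate number was added as a block the shares at the unadjusted threshold were 11.5% higher and 4.98% lower (1278 and 552 genes), with 0 genes called. Every list below had 0 genes called with and without the block.

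Of the 30 actin cytoskeleton genes 29 had a positive log2 fold change, with a median of 0.57, and 6 were higher at an unadjusted p under 0.05, or 25 with the block. Vcl, the gene of vinculin at focal adhesions, measured 11.7, 26.9 and 25.3 FPKM for R3-Cntl DZ and 38.4, 64.5 and 32 FPKM for R3-cKO DZ, groups that did not overlap (log2 fold change 1.06, SE 0.38, limma adjusted p = 0.999). Csrp1 was at 0.99 (SE 0.42), Flna at 0.91 (SE 0.46) and Tagln2 at 0.89 (SE 0.55). All 5 tested smooth muscle genes were positive with a median of 0.66, and 1, Mustn1, was higher at the unadjusted threshold, or 5 with the block. The largest difference was that of Actg2, the enteric smooth muscle actin, with 0.75, 5.07 and 1.08 FPKM for R3-Cntl DZ and 5.21, 12.8 and 1.44 FPKM for R3-cKO DZ (1.08, SE 0.72).

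Of 19 tested genes of the SRF and MRTF axis 18 were positive with a median of 0.25, 14 with quantile normalization and 15 with median-of-ratios size factors. At the unadjusted threshold 0 were higher, or 6 with the block. Tgfb1i1 was at 0.73 (SE 0.33) and Lima1 at 0.70 (SE 0.43). Of the 18 dedifferentiation genes 12 were positive, with a median of 0.24, and 0 passed the unadjusted threshold, or 5 higher and 1 lower with the block. Lgals1 (galectin 1), Cd44 (the hyaluronan receptor) and S100a4 had the largest values, 1.41 (SE 0.69), 1.40 (SE 0.74) and 1.39 (SE 0.89). Col1a1, the type I collagen gene and the classical marker of chondrocyte dedifferentiation, was at 0.12 (SE 1.43), with 24.4, 242 and 961 FPKM for R3-Cntl DZ and 52.8, 244 and 576 FPKM for R3-cKO DZ. Among DZ libraries R3-Cntl DZ 3 had the highest Col1a1, while its Acta2 was below every R3-cKO DZ value. R3-Cntl DZ 1 was the lowest DZ library for Col1a1 and for all 10 genes. Over the 12 libraries Col1a1 had an r of 0.38 to the mean of the 10.

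Of 17 tested cartilage genes 15 had lower means under the R3-cKO label, with a median of -0.44, and 2 were lower at the unadjusted threshold, or 9 with the block. The largest difference was that of Matn1 (-1.03, SE 0.85), which encodes the matrix protein matrilin 1, and Hapln1, the link protein of aggrecan, did not overlap between groups (-0.72, SE 0.20, limma adjusted p = 0.999). In the SFZ the medians of these lists were between -0.13 and 0.07, and 0 genes of any of them passed even the unadjusted threshold.

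Between the zones the called counts of the lists stand beside 16.8% of all tested genes called higher and 3.82% called lower in the SFZ. All 30 actin cytoskeleton genes were positive for the SFZ with the deposited values (29 and 26 under the other scalings), with a median of 0.38, and 4 were called higher (2 and 1), among them Mylk, the myosin light chain kinase gene that acts on the product of Myl9 (1.25, SE 0.30, limma adjusted p = 0.0182, and 0.0474 and 0.0327 under the other scalings). Mylk measured 3.16 to 9.93 FPKM in SFZ libraries and 0.84 to 3.24 FPKM in DZ libraries. Of the smooth muscle genes Lmod1 and Itga8 passed the filter only through SFZ libraries and are not counted. Mustn1 was called (1.14, SE 0.29, limma adjusted p = 0.0206), with an adjusted p of 0.057 with quantile normalization and 0.0384 with median-of-ratios size factors. Actg2 (1.59, SE 0.67), Csrp2 (0.55, SE 0.24), Smtn (0.38, SE 0.18) and Hspb6 (0.34, SE 0.27) were positive and not called. Of 19 SRF and MRTF axis genes 16 were positive with a median of 0.30, and 2 were called higher and 1 lower in the SFZ, against 1 and 2 with quantile normalization and 1 and 1 with median-of-ratios size factors. The higher ones were Fhl3 (0.76, SE 0.15, limma adjusted p = 0.00754, and 0.014 and 0.0142 under the other scalings) and Diaph1 (0.61, SE 0.15, limma adjusted p = 0.021, and 0.0767 and 0.0511). The lower one was Ccn2, a target of YAP and of SRF, which was higher in every DZ library, at 752 to 1150.4 FPKM, than in any SFZ library, at 235 to 639 FPKM (-1.22, SE 0.23, limma adjusted p = 0.00692), and it was called under all 3 scalings.

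The dedifferentiation list held 11 genes called higher and 2 called lower in the SFZ of 18 tested, with a median of 1.26. Postn and Col1a1 were higher in the SFZ by 5.21 (SE 0.53, limma adjusted p = 0.000816) and 3.73 (SE 0.84, limma adjusted p = 0.0136), and their zones did not overlap. Of 17 cartilage genes 15 were called lower in the SFZ, with a median of -1.28, among them Acan (-2.11, SE 0.43, limma adjusted p = 0.00933). Postn, Col1a1 and Acan were called in the same direction under both other scalings, and the counts were 11 higher and 1 lower, or 10 and 2, for the dedifferentiation genes and 14 or 15 lower for the cartilage genes.

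Other cells that express contractile genes were looked for by their markers. Myh11, the myosin of mature smooth muscle, was at 0.01 to 0.04 FPKM in DZ libraries and at 0.05 to 1.18 FPKM in SFZ libraries, and Myocd, the cardiac and smooth muscle coactivator of SRF, was at 0 to 0.18 FPKM in all 12. The smooth muscle list as a whole summed to 60.1, 84.8 and 78.1 FPKM for R3-Cntl DZ, 106, 154 and 83.3 FPKM for R3-cKO DZ, 87.9, 186 and 168 FPKM for R3-Cntl SFZ and 85.0, 203 and 134 FPKM for R3-cKO SFZ, Hspb6 being its most abundant gene. Rgs5, a marker of pericytes, was at or under 0.22 FPKM in every DZ library, and the endothelial gene Cdh5 at or under 0.01 FPKM, while in SFZ libraries they measured 0.08 to 1.05 FPKM and 0.02 to 1.21 FPKM.

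The 7 pericyte and vascular genes in the table summed to 129 FPKM or less in DZ libraries other than R3-Cntl DZ 1 (165 FPKM) and R3-cKO DZ 1 (134 FPKM), and to 98.0 to 152 FPKM in SFZ libraries. Cspg4, which chondrocytes also express, was the most abundant of them. In the DZ 0 of 3 tested genes differed at the unadjusted threshold, or 1 higher and 1 lower with the block, and between the zones Pdgfrb was called higher in the SFZ (1.08, SE 0.19, limma adjusted p = 0.00483). Notch3 passed the filter only through SFZ libraries, so its difference is not counted. The 8 endothelial genes summed to 1.74 to 8.48 FPKM, Egfl7 being the most abundant by mean, and the 1 tested gene was not called in any comparison.

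The 7 macrophage genes, led by Lyz2, summed to 162, 133 and 7.10 FPKM for R3-Cntl SFZ, 129, 13.9 and 60.6 FPKM for R3-cKO SFZ, and 3.52 to 21.9 FPKM in the DZ, and Adgre1, Csf1r, Mrc1 and C1qa passed the filter between the zones only through SFZ libraries, so they are not counted. Of the other 2 tested genes, Cd68 was called higher in the SFZ under all 3 scalings (2.12, SE 0.47, limma adjusted p = 0.013) and Lyz2 with the deposited values alone (2.66, SE 0.85, limma adjusted p = 0.0498). Among SFZ libraries the 10 contractile genes were high in R3-Cntl SFZ 3 and R3-cKO SFZ 2, in which the macrophage sum was lowest, and also in R3-Cntl SFZ 2, in which it was not. Of the 8 tendon and fibroblast genes Tnmd, Thbs4, Dpt and Col14a1 passed the filter between the zones only through SFZ libraries and are not counted. Scx (0.94, limma adjusted p = 0.0176) and Mkx (1.265, limma adjusted p = 0.0068) were called higher in the SFZ under all 3 scalings. Pdgfra (1.71, limma adjusted p = 0.0541) and Dcn, which ran the other way (-1.19, limma adjusted p = 0.0641), were not called. The sums of the 8, with Dcn the most abundant by mean, were 182 to 664 FPKM in the SFZ and 236 to 584 FPKM in the DZ. The 7 osteoblast genes, led by Spp1, summed to 266 to 663 FPKM in the SFZ and 334 to 1051 FPKM in the DZ. Bglap was called higher in the SFZ. Of 5 tested osteoblast genes, 2 in the SFZ had lower values under the R3-cKO label at the unadjusted threshold, against 0.113% of all genes. The median log2 fold change there was -0.88. Bglap, which reached 1 FPKM in only 1 R3-cKO DZ library, passed the DZ filter only through R3-Cntl libraries and is not counted there. In the DZ Alpl was at -1.63 (SE 0.29) and Ibsp at -1.54 (SE 0.69), and 0 osteoblast genes were called. Of the 3 skeletal muscle genes tested between the zones Mylpf passed the filter only through SFZ libraries and is not counted, and Acta1 and Tnnt3 were not called. In the DZ some genes of these lists moved with the 10 between genotypes, with 0 called. Of 2 tested skeletal muscle genes Acta1 passed the filter only through R3-cKO libraries and is not counted. Tnnt3 was lower at the unadjusted threshold with the block alone. Acta1, with an r of 0.79 to the mean of the 10, measured 0.65, 3.54 and 0.95 FPKM for R3-Cntl DZ and 6.54, 12.0 and 1.90 FPKM for R3-cKO DZ. The other tested gene, Tnnt3, was at -0.52 (SE 0.34). Of 4 tested tendon and fibroblast genes 0 passed, or 1 higher with the block, Scx (0.82, SE 0.35, r = 0.71), while Dcn was at -0.29 (SE 0.44). Of 2 tested macrophage genes 1 was lower with and without the block, Lyz2 (-1.15, SE 0.44), whose DZ groups did not overlap. The part of these cells in the levels of the 10 genes was not tested.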

How the data were processed

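The deposited table gives a value for each of 17536 genes in 12 libraries of SFZ and DZ cells, and every column was matched to its genotype, zone and number by name. The authors sequenced the RNA, mapped reads to mm9 (Bowtie 0.12.2, per the submitters' processing notes) and deposited values that are taken here as FPKM with a TMM scaling (trimmed mean of M values). This unit is inferred from the values and from the name of the table. They are not on a log scale. Sequencing depth is unknown, so no counting error is given.

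Values were analysed as log2(FPKM + 1) with limma 3.58.1 (eBayes with a mean-variance trend) in R 4.3.3, over genes that reached 1 FPKM in 3 or more libraries of a comparison, with Benjamini-Hochberg adjustment over all genes tested and a threshold of 0.05. All 10 genes passed this filter in each comparison, and they were tested only between genotypes in the SFZ, since DZ values selected them. Fold changes on this scale understate those of low genes. Genotypes were compared within each zone (6 libraries), and zones over all 12 libraries as the mean of both genotypes. The procedure was tested on simulated data. Promoters and positions were read with Python 3.11.15 and pandas 2.3.3, positions from the GENCODE annotation of mm9, and figures were drawn with matplotlib 3.10.9.

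The members and the lists (actin cytoskeleton, SRF and MRTF axis, smooth muscle, dedifferentiation, cartilage, pericyte, endothelial, skeletal muscle, tendon and fibroblast, osteoblast, macrophage, Y-linked) were chosen with earlier results of these data known. Named are the 10 genes, Runx3, up to 4 tested genes of a list with the largest difference in a comparison, the most abundant gene of each list of another cell type, and the 10 other genes most like the members. Genes named beyond this rule, such as Myh11, Myocd, Myh3, Rgs5, Cdh5, Sox6, Tnc, Cnn3, Tgfbi, Fhl3, Diaph1, Adgre1 and Mrc1, and Col1a1 in the DZ, were chosen after their values were seen.

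Pairing by number was checked by correlating libraries after removal of group means, over 11359 genes. Same-number R3-Cntl and R3-cKO libraries had r of 0.65, 0.78 and 0.69 in the DZ and 0.79, -0.09 and -0.42 in the SFZ. No label ties the numbers to animals, so a pairing of DZ libraries between genotypes is inferred from these same data. The DZ results with the block rest on that inference. In the SFZ the numbers are not shown to pair libraries. The study describes littermates. Alternatives were pseudocounts of 0.1 and 5, no filter, a mean of at least 10 FPKM, quantile normalization, median-of-ratios size factors, a replicate block, all 12 libraries in 1 model for the genotype comparisons, 1 genotype alone for the zones, and each library left out in turn.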

Additional observations from a re-analysis of the deposited data

How the results depend on the processing

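No alternative brought any of the 10 genes past the threshold between genotypes in the SFZ. The calls of all genes stayed at 0 there in 14 of 14 alternatives, and in the DZ in 13 of 14, the exception being 1 gene, Stfa1, without a filter (at most 0.99 FPKM in any library, chosen after its values were seen). Counts at an unadjusted p under 0.05 moved further, in the SFZ from 34 to 183 without a filter and 15 over genes whose mean reached 10 FPKM, and to 101, 1204 and 12 without R3-Cntl SFZ 1, R3-cKO SFZ 2 and R3-cKO SFZ 3. In the DZ they moved from 404 to 779 without a filter, 184 over genes whose mean reached 10 FPKM, 1830 with the replicate block, and 211 to 773 over single libraries left out. When each library was left out in turn, SFZ log2 fold changes ranged from -1.32 to 0.044 for Acta2, -1.63 to 0.12 for Tagln, -1.01 to 0.014 for Myl9, -0.90 to 0.31 for Cnn1, -0.65 to 0.068 for Cnn2, -0.51 to 0.21 for Tpm1, -0.51 to 0.77 for Fhl2 and -0.53 to 0.073 for Vim, and those of Srf and Tpm2 stayed negative.

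Between the zones 2424 genes were called, 1008 among those whose mean reached 10 FPKM, where fewer genes were tested, 140 in R3-Cntl libraries alone and 2 (Cd34 and Cdh13, chosen after their values were seen) in R3-cKO libraries alone, where fewer libraries were used, and 1245 to 2796 when single libraries were left out, the fewest without R3-Cntl SFZ 2. They numbered 1545 without R3-Cntl DZ 1 and 1588 without R3-cKO DZ 1. Libraries of both zones may come from the same animals, but the labels do not say so, and same-number r between zones was 0.58, 0.11 and -0.15 in R3-Cntl and 0.42, 0.78 and 0.65 in R3-cKO. With genotype and number as a replicate block 3965 genes were called (26.9% of those tested higher and 6.8% lower in the SFZ). Among them were 11 of 30 actin cytoskeleton genes and, of 19 SRF and MRTF axis genes, 10 higher and 1 lower. Of the smooth muscle genes Actg2, Smtn, Mustn1 and Csrp2 were called and Hspb6 was not, Lmod1 and Itga8 again not being counted. The zone difference turned negative for Acta2 with median-of-ratios size factors (-0.0014) and positive for Fhl2 in R3-Cntl libraries alone (0.76). In R3-cKO libraries alone it was -0.97 for Acta2, -0.38 for Tagln, -0.091 for Cnn2, -0.19 for Tpm2 and -0.35 for Vim. Over single libraries left out it ranged from -0.24 to 0.57 for Acta2 and from -0.56 to 0.17 for Fhl2. The cause of these changes was not tested. The replicate block changed no call between genotypes. Groups held 3 libraries with severalfold spread and unknown depth, and no detection limit was computed.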
